A study of Mus musculus with 6 samples.

Results

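The comparison set RNA from mouse embryonic fibroblasts (MEFs) after 24 hr of TNFα against RNA from the same kind of cells after 1.5 hr. It asked which genes of the early response had receded, which had held and which had moved only late. The 2 libraries were chosen by their treatment labels and are 2 of the 6 samples of the series. The other 4 are RNA from untreated MEFs, RNA after 6 hr of TNFα, an H3K4me3 ChIP and its input, the last 2 from untreated cells. All cells were primary wildtype MEFs of a C57BL/6x 129 background, grown from littermate embryos of day 13.5 and passaged 4 times, and treated cells had received 20 ng/mL of TNF-alpha. PolyA RNA was sequenced as paired-end directional libraries. A protocol field of the 24 hr sample describes ChIP, whereas its title, its treatment and its library source are those of RNA. Each time had 1 library, so no spread between cultures could be measured, and the counts and ratios that follow carry no test.

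TNFα is a cytokine that binds receptors on the cell surface and activates NF-κB, a family of dimeric transcription factors. IκB proteins keep these factors inactive until a stimulus removes them. The genes then switched on include some that encode inhibitors of the pathway, such as Nfkbia (IκBα) and Tnfaip3 (A20), which close a negative feedback loop. Fibroblasts make the collagens, elastic fibres and proteoglycans of connective tissue, and under TNFα they also secrete chemokines and matrix-degrading enzymes. A gene called early in such a response may thus be shut off by feedback, kept on, or joined by genes that take hours to appear.

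The deposited values are reads per kilobase of transcript on a scale of the authors' own, with 2 columns (R1 and R2) per library, and the mean of the 2 columns was taken as the value of the library. Of 25684 protein coding entries, 1 was kept for each of 20275 gene symbols, and 6571 genes had a mean above 85.6 over the 8 columns. None of these was listed at 0 in a library compared. A gene can pass this filter through the library in which it is high, as Saa3 did, so the genes that passed are not a fair sample of all genes. Low transcripts changed in steps that correspond to single reads, and on those steps a transcript of 2 kb at the filter value held between 154 and 214 reads per column. Ratios between libraries are given as log2 values from which the ratio of the median gene was subtracted. That median was -0.33 for 24 hr over 1.5 hr, 0.45 for 1.5 hr over untreated and 0.11 for 24 hr over untreated. The library of 6 hr had the lowest sum of protein coding values, with a median ratio of -0.74 to untreated and -1.33 to 1.5 hr, so deposited values at 6 hr read low beside those of the other times.

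The libraries of 24 hr and 1.5 hr differed little. The centred log2 ratio of 24 hr over 1.5 hr had an SD of 0.36 across the 6571 genes. Across the same genes it was 1.02 for 1.5 hr over untreated and 0.98 for 24 hr over untreated, and between 0.68 and 0.89 for the 3 ratios with the 6 hr library. At least 2-fold higher at 24 hr than at 1.5 hr were 43 genes (0.654% of those compared), and 71 genes (1.08%) were at least 2-fold lower. In both the R1 and the R2 columns 40 and 66 genes passed that fold. Ccdc34, at 1.001, was the last gene inside the limit on the higher side and Gng8, at 0.998, the first outside it. On the lower side Nfkbie, at -1.001, was just inside and Bcl2a1d, at -0.97, just outside.

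**Figure D1:**
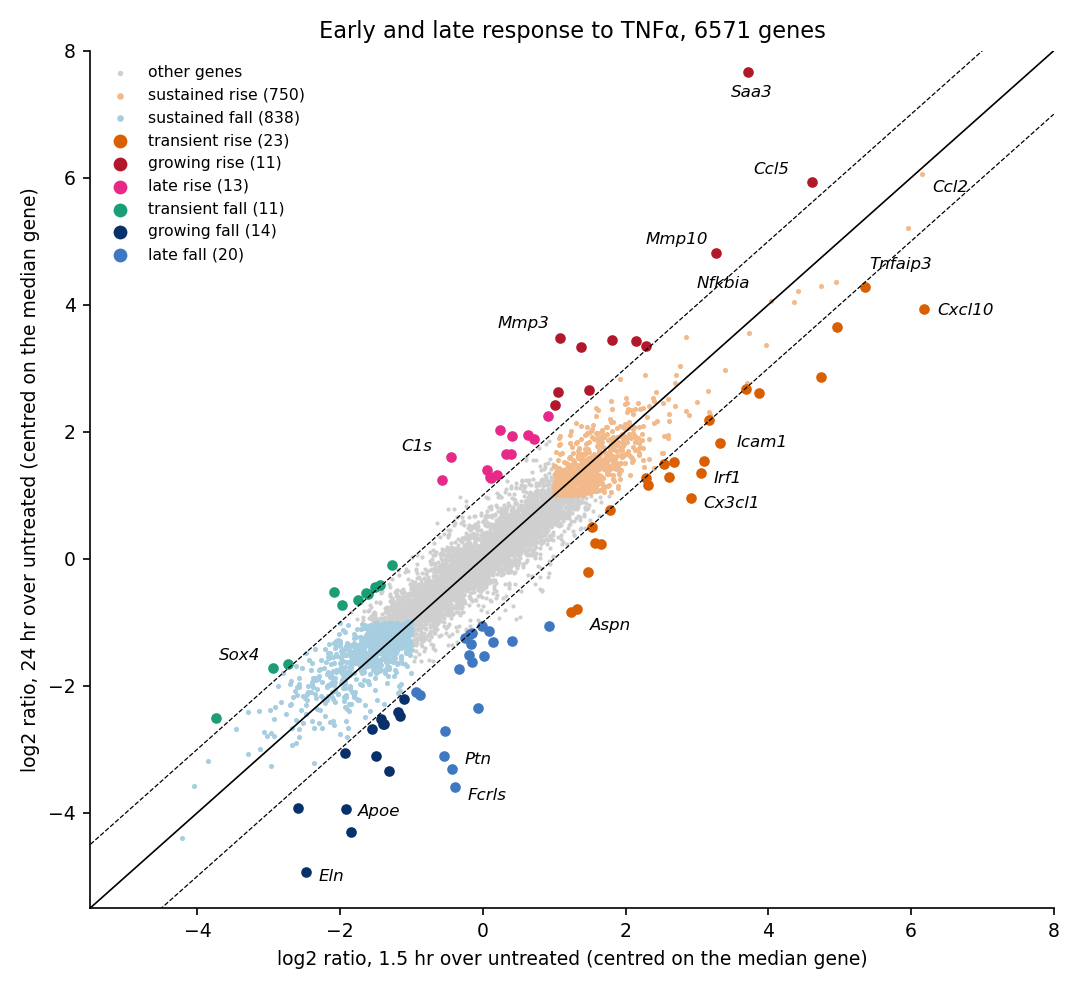
Each point is 1 of 6571 genes, with its log2 ratio of 1.5 hr over untreated on the horizontal axis and of 24 hr over untreated on the vertical axis, both centred on the median gene. The solid line marks equal ratios and the dashed lines a 2-fold difference, and the 23 genes with a transient rise lie below the lower dashed line on the right while Saa3, Ccl5, Mmp3 and Mmp10 lie above the upper one.

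Against the untreated library, 1030 genes (15.7%) had risen at least 2-fold by 1.5 hr and 1150 (17.5%) had fallen as far. At 24 hr these were 925 (14.1%) and 1000 (15.2%). The ratios at both times share the untreated library. A rise at 1.5 hr was called transient where the gene was then at least 2-fold lower at 24 hr than at 1.5 hr, growing where it was at least 2-fold higher still, and sustained where both times were at least 2-fold above untreated and within 2-fold of each other. A late rise was below the limit at 1.5 hr and at least 2-fold above both other libraries at 24 hr, and falls were classed in the same way. There were 23 genes with a transient rise, 750 with a sustained rise, 11 with a growing rise and 13 with a late rise. Transient does not mean a return to the untreated level, since these rises still had a median of 1.35 over untreated at 24 hr. Among the falls, 11 were transient, 838 sustained, 14 growing and 20 late. Another 246 rises and 287 falls at 1.5 hr had slipped inside the 2-fold limit by 24 hr without a 2-fold change from 1.5 hr. The same class was reached in the R1 and in the R2 columns by 20 of the transient and 669 of the sustained rises. GC content of the transcript had a Spearman correlation of -0.56 with the ratio of 1.5 hr over untreated across 6509 genes, which share the same libraries, and of 0.16 with the ratio of 24 hr over 1.5 hr. With ratios centred within 20 bins of GC content, 490 rises and 437 falls were sustained, and 44 genes were higher and 70 lower at 24 hr than at 1.5 hr. The part of GC content in the ratios to untreated was not tested further.

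NF-κB dimers bind a short DNA element, the κB consensus, and matches to it near the start are shown for genes of the early response that parted by 24 hr. The windows come from RefSeq promoters of GRCm38.p6, 250 bases before to 50 after the start, are written 5′ to 3′ in the direction of the gene (the minus strand for Cxcl10, Tnfaip3 and Nfkbia, the plus strand for the others), and carry the 10 bases that match the consensus on either strand in capitals. The first 5 belong to genes with a transient rise and lie, in order, at chr5:92349029-92349058, chr5:92348973-92349002, chr11:53769991-53770020, chr17:45555584-45555613 and chr10:19015403-19015432.
Cxcl10: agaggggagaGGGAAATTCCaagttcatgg
Cxcl10: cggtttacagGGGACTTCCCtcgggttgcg
Irf1: agtccgggccGGGGAATCCCgctaagtgtt
Nfkbie: gcagcaaacaGGGGGATTCCggaggggcgg
Tnfaip3: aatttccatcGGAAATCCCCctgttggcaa
The next 4 belong to genes with a sustained rise, at chr12:55492657-55492686, chr5:90891164-90891193, chr5:90903792-90903821 and chr1:83116676-83116705, and Cxcl1 and Cxcl2 share the same 10 bases.
Nfkbia: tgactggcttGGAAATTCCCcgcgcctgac
Cxcl1: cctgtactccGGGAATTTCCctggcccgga
Cxcl2: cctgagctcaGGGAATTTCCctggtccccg
Ccl20: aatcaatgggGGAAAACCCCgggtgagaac
Counted from the start, the matches shown for transient genes began at -159 and -103 (Cxcl10), -13 (Irf1), -106 (Nfkbie) and -12 (Tnfaip3). Those shown for sustained genes began at -29 (Nfkbia), -71 (Cxcl1), -97 (Cxcl2) and -80 (Ccl20). They are examples and not the full set. Other matches in transient rises, such as Tnfaip3 at -125, Gjb2 at -134 and Tnfaip2 at -24, are not shown. A match was found in 6 of 22 promoters of genes with a transient rise (27.3%), from 6 of the 18 genes that had one in the table. It was found in 85 of 721 promoters of genes with a sustained rise (11.8%), in 0 of 10 for growing rises and in 2 of 10 for late rises. Among the falls it was found in 3 of 15 promoters for transient, 93 of 928 for sustained, 2 of 14 for growing and 0 of 19 for late falls. Among all genes above the filter the share was 11.1%, and 8.46% among all 32851 listed promoters. Overlapping matches on the 2 strands, as in Cxcl1 and Cxcl2, counted once per promoter. A match describes letters only, and 80.9% of the genes above the filter had a promoter in the table.

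Cxcl10, a chemokine that draws activated T cells, had the lowest ratio of 24 hr over 1.5 hr among the transient rises. Its values were 7.64 untreated, 762 at 1.5 hr, 130.4 at 6 hr and 126 by 24 hr. It stood 4.81-fold lower at 24 hr than at 1.5 hr after centring, with log2 ratios of -2.27 and -2.26 in the R1 and R2 columns, yet remained far above its untreated value, at 3.93. Cx3cl1, the membrane-anchored chemokine fractalkine, had 80.3 untreated, 829 at 1.5 hr, 154 at 6 hr and 168 by 24 hr. Its log2 ratio of 24 hr over 1.5 hr was -1.97, and at 24 hr it was back within 2-fold of untreated, at 0.95. Ripk2, the kinase that relays signals from NOD receptors, had 23.3 untreated, 846 at 1.5 hr, 156 at 6 hr and 183 by 24 hr. Like Cxcl10 it peaked at 1.5 hr and stayed above untreated later, with a log2 ratio of -1.88 for 24 hr over 1.5 hr.

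Irf1, a transcription factor of the interferon response, had values of 114 untreated, 1289 at 1.5 hr, 391 at 6 hr and 313 by 24 hr. Its log2 ratio of 24 hr over 1.5 hr was -1.71, and at 24 hr it was still more than 2-fold above untreated. Tnfaip2, named for its induction by TNFα, had 257 untreated, 3010.4 at 1.5 hr, 709 at 6 hr and 809 by 24 hr, and Icam1, the adhesion molecule that leukocytes grip on activated cells, had 57.1 untreated, 781 at 1.5 hr, 225 at 6 hr and 218 by 24 hr. Their log2 ratios of 24 hr over 1.5 hr were -1.56 and -1.51, and those of 6 hr over 1.5 hr, centred likewise, were -0.76 and -0.47. The guanylate-binding proteins Gbp1 (-1.31) and Gbp3 (-1.03), GTPases of host defence, were in the same class. So were the death receptor Fas (-1.27), the interleukin-15 receptor chain Il15ra (-1.16), the gap junction protein Gjb2 (-1.33), the cationic amino acid transporter Slc7a2 (-1.16) and the growth regulator Slfn2 (-1.44). Bcl2a1a (-1.05) and Bcl2a1b (-1.03) encode inhibitors of cell death, but these copies and Bcl2a1d are near-identical in sequence and the counting may have split reads among them. Sema7a (-1.04) and Katna1 (-1.33) were in the class too, as were Nfkb1, Tnfaip3 and Nfkbie, whose values are given with the NF-κB genes.

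A further set of transient rises were genes of the extracellular matrix. Aspn (asporin) had 245 untreated, 838 at 1.5 hr, 168 at 6 hr and 153 by 24 hr, and its neighbour Ogn (osteoglycin) had 164 untreated, 529 at 1.5 hr, 129.8 at 6 hr and 99.8 by 24 hr. Both are small leucine-rich proteoglycans, proteins that bind collagen fibrils. They were more than 2-fold above untreated at 1.5 hr after centring, at 1.32 and 1.23, and below untreated at 24 hr, at -0.79 and -0.83. Cthrc1, a secreted protein with a collagen triple helix repeat, had 295 untreated, 1118 at 1.5 hr, 222 at 6 hr and 274 by 24 hr and a log2 ratio of -1.70 for 24 hr over 1.5 hr.

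**Figure D2:**
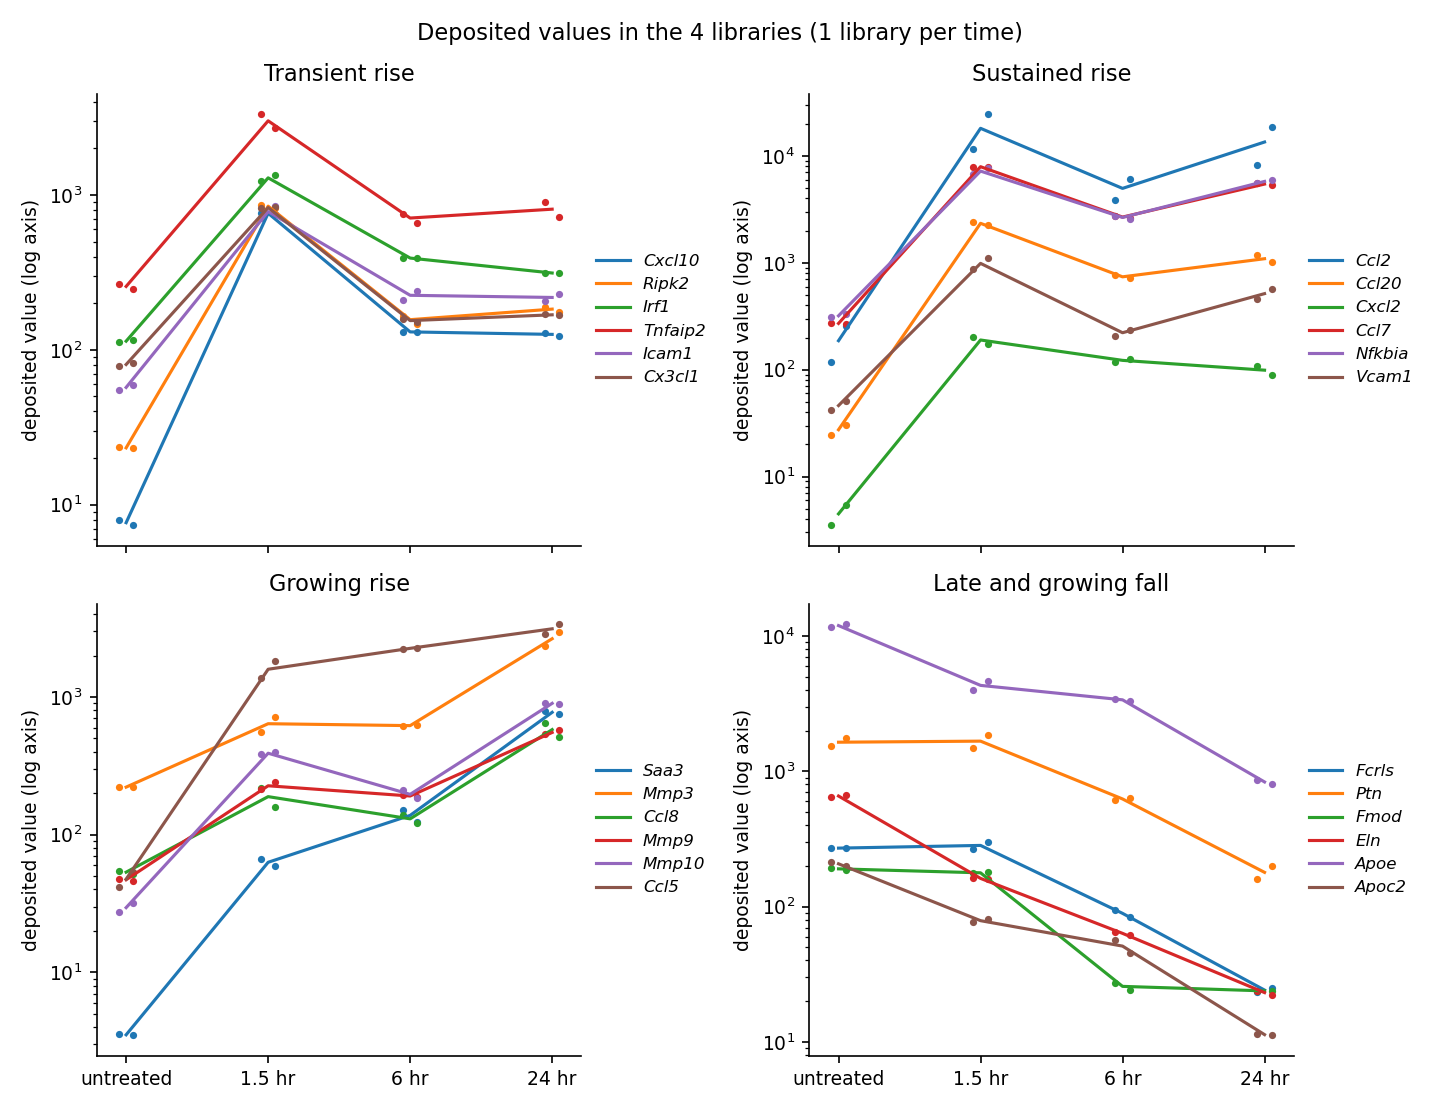
Deposited values on a log axis for 6 genes of each of 4 patterns, by library, with lines through the library values and points for the R1 and R2 columns of each library. Cxcl10 falls from 762 at 1.5 hr to 126 at 24 hr, Nfkbia is at 7211 and 5772, Saa3 rises from 63.0 to 774, and Eln falls from 162 to 23.2.

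The NF-κB genes themselves differed in their change from 1.5 to 24 hr. All 4 subunits above the filter were lower at 24 hr than at 1.5 hr, with a median log2 ratio of -0.39, and Nfkb1 (p105/p50) alone passed 2-fold. Nfkb1 had 115 untreated, 544 at 1.5 hr, 149.8 at 6 hr and 212 by 24 hr, a log2 ratio of -1.03. Relb, a subunit of the slower noncanonical branch, had 141 untreated, 705 at 1.5 hr, 330.2 at 6 hr and 407 by 24 hr, and was 2-fold above untreated at both times. Nfkb2 (-0.30) and Rela (-0.31) moved less, and Rel was below the filter.

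Of 13 inhibitors and feedback genes, 10 were above the filter, with a median of -0.20, and 2 were at least 2-fold lower at 24 hr than at 1.5 hr. Tnfaip3, which encodes the ubiquitin-editing enzyme A20, had 7.13 untreated, 399 at 1.5 hr, 70.8 at 6 hr and 149 by 24 hr, and Nfkbie, which encodes IκBε, had 43.0 untreated, 530.0 at 1.5 hr, 225 at 6 hr and 210.3 by 24 hr. Nfkbia had 319 untreated, 7211 at 1.5 hr, 2655 at 6 hr and 5772 by 24 hr. The first pair had log2 ratios of -1.09 and -1.001 for 24 hr over 1.5 hr, whereas IκBα stood at 0.01, with 0.05 and -0.02 in the 2 columns. Tnfaip3 and Nfkbie were nonetheless still above untreated at 24 hr, at 4.27 and 2.18. Nfkbib (-0.27) and the A20-binding protein Tnip1 (0.11) were sustained as well. Among all genes above the filter 1.73% passed 2-fold between the 2 times. Of 20 receptors and adaptors of the TNFα pathway, 12 were above the filter and 0 passed 2-fold. Birc3, the ubiquitin ligase cIAP2, had the lowest ratio of them at -0.53, and the receptor Tnfrsf1a stood at 0.05.

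The chemokine families gave different counts. Among 8 CXC and CX3C chemokines above the filter, 2 were at least 2-fold lower and 0 at least 2-fold higher at 24 hr than at 1.5 hr, with a median of -0.55. Among 8 CC chemokines, 3 were higher and 0 lower, with a median of 0.18. By construction the median over all genes above the filter is 0. The median of the CC list turned to -0.15 without centring, and whether the families differ was not tested. Cxcl1, Cxcl2 and Cxcl5 draw neutrophils, and their log2 ratios of 24 hr over 1.5 hr were -0.86, -0.60 and 0.78. Ccl2, which draws monocytes, had the highest CC value at every treated time, 187 untreated, 18120.3 at 1.5 hr, 4967 at 6 hr and 13491 by 24 hr. Its R1 and R2 columns stood far apart, 11601 and 24639.8 at 1.5 hr and 8182 and 18799.5 at 24 hr, but the log2 ratio of 24 hr over 1.5 hr was close to 0 in each, -0.18 and -0.04. Ccl7 (-0.21) was sustained alongside it, and Ccl20 (-0.77) and Ccl12 (-0.94) were lower by less than 2-fold.

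Sustained rises held most of the early genes. Beside the chemokines, those with the largest ratio at 1.5 hr were Rnd1, a small GTPase, and Gbp2. Rnd1 had 12.2 untreated, 446 at 1.5 hr, 116 at 6 hr and 260.1 by 24 hr, and Gbp2 had 16.6 untreated, 466 at 1.5 hr, 161 at 6 hr and 296 by 24 hr. Their ratios of 24 hr over 1.5 hr were -0.45 and -0.32, so both lost less than 2-fold. The list of leukocyte adhesion genes had a median of -0.32 over 4 genes. The adhesion molecules Vcam1 (-0.61) and Cd44 (-0.04) were sustained, in contrast to Icam1. So were the cytokines Lif (-0.93) and Csf1 (-0.55), the mitochondrial superoxide dismutase Sod2 (0.13), the LPS co-receptor Cd14 (-0.08) and the prostaglandin enzymes Ptgs2 (-0.14) and Ptges (-0.02). Immediate-early factors, which many stimuli raise within an hour, were also much alike at the 2 times. Of 16 above the filter, 9 were at least 2-fold above untreated at 1.5 hr and 6 at 24 hr, and the median ratio of 24 hr over 1.5 hr was -0.09. Junb had 218 untreated, 1283 at 1.5 hr, 304 at 6 hr and 971 by 24 hr, and Myc had 133 untreated, 426 at 1.5 hr, 204 at 6 hr and 326 by 24 hr. Their log2 ratios of 24 hr over 1.5 hr were -0.07 and -0.05.

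Saa3, an acute-phase protein that fibroblasts and macrophages make in inflammation, had the highest ratio of 24 hr over 1.5 hr of all genes above the filter. Its values were 3.52 untreated, 63.0 at 1.5 hr, 138 at 6 hr and 774 by 24 hr. The log2 ratio was 3.95 (15.5-fold), with 3.90 in the R1 and 4.02 in the R2 columns, and its untreated value was the lowest among the genes above the filter. The acute-phase list had a median of 0.22 (-0.12 without centring), and its other genes above the filter, Serpina3g (0.42), Ptx3 (0.01) and Serpina3n (-0.23), did not pass 2-fold.

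Matrix metalloproteinases, enzymes that cleave collagen and other matrix proteins, made up much of the growing rise. Of 14 metalloproteinases and inhibitors above the filter, 4 were at least 2-fold higher and 0 lower at 24 hr than at 1.5 hr, with a median of 0.23 (-0.10 without centring). Mmp3 (stromelysin-1) had 222 untreated, 639.8 at 1.5 hr, 619.7 at 6 hr and 2652 by 24 hr, and Mmp10 (stromelysin-2) had 29.5 untreated, 391 at 1.5 hr, 196 at 6 hr and 899.8 by 24 hr. Both were already above untreated at 1.5 hr and highest at 24 hr, with log2 ratios of 2.38 and 1.54 between those times. Mmp9 (gelatinase B) had 47.0 untreated, 227 at 1.5 hr, 191 at 6 hr and 553 by 24 hr, and Mmp13 (collagenase-3) had 56.1 untreated, 339.7 at 1.5 hr, 206 at 6 hr and 655 by 24 hr, ratios of 1.62 and 1.28. The inhibitor Timp1 stood at 0.87 and Mmp14 at 0.64, both inside the limit, while Timp3 was at -0.75.

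Ccl8 and Ccl5 were further members of the class. Ccl8 had 53.4 untreated, 189 at 1.5 hr, 130.3 at 6 hr and 579.8 by 24 hr, and Ccl5 (RANTES), an interferon- and NF-κB-induced attractant of T cells, had 47.5 untreated, 1591 at 1.5 hr, 2258 at 6 hr and 3131 by 24 hr. After centring, Ccl5 stood higher at 6 hr (6.31 over untreated) than at 24 hr (5.93). Their log2 ratios of 24 hr over 1.5 hr were 1.95 and 1.31. Ass1, which makes argininosuccinate on the way to arginine, had 984 untreated, 2716 at 1.5 hr, 1369 at 6 hr and 5697 by 24 hr, a ratio of 1.40. The list of arginine and nitric oxide genes had a median of 0.22 over 5 genes (-0.11 without centring), with Ass1 higher and the early transporter Slc7a2 lower. Il2rg, the common chain of several interleukin receptors (1.57), Tmed5, a protein of the secretory path (1.17), and Glrx, glutaredoxin (1.05), completed the class.

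Late rises were below the 2-fold limit at 1.5 hr by definition, and some stood near it, such as Ccl9 at 0.91, Raph1 at 0.72 and Cited2 at 0.63 over untreated. C1s, a protease that starts the classical complement pathway, had 54.6 untreated, 54.9 at 1.5 hr, 72.4 at 6 hr and 178 by 24 hr, and Sod3, the extracellular superoxide dismutase, had 161 untreated, 148 at 1.5 hr, 114 at 6 hr and 412 by 24 hr. Neither was above its untreated level at 1.5 hr after centring (-0.44 and -0.57), and their ratios of 24 hr over 1.5 hr were 2.03 and 1.81. Dcn (decorin), the proteoglycan that binds collagen and TGF-β, had 229 untreated, 328 at 1.5 hr, 147 at 6 hr and 653 by 24 hr, a ratio of 1.33 that ran against most of its family. Tmem176b, a membrane protein, had 1221 untreated, 2226 at 1.5 hr, 1161 at 6 hr and 5039 by 24 hr. The rest were Ccl9 (1.32), the transcriptional cofactor Cited2 (1.31), the heparan sulfate polymerase Ext1 (1.12), the actin regulator Raph1 (1.15), the G protein subunit Gng11 (1.25), the protease Mcpt8 (1.78), Prelid2 (1.32), Ecscr (1.17) and Ghdc (1.15). Interferon-stimulated antiviral genes leaned the same way without a call. Of 14 above the filter, 0 passed 2-fold in either direction between 1.5 and 24 hr, beside 1.73% of all genes above the filter. Of these 14, 10 had a ratio above 0 and the median was 0.33, which fell to -0.00146 without centring. Isg15 (0.81) and Ifit1 (0.94) were among the higher ones, and the regulator Irf7 (1.01) lay at the limit.

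Genes of the extracellular matrix were lower at 24 hr than at 1.5 hr in several lists. Eln (elastin), the rubber-like protein of elastic fibres, had 657 untreated, 162 at 1.5 hr, 63.5 at 6 hr and 23.2 by 24 hr. It was at least 2-fold below untreated at 1.5 hr and its log2 ratio of 24 hr over 1.5 hr was -2.47. Fbn2 (fibrillin-2), the scaffold of these fibres, had 668 untreated, 339.8 at 1.5 hr, 225 at 6 hr and 126 by 24 hr, a ratio of -1.10. All 18 elastic fibre genes above the filter had a ratio below 0, with a median of -0.37, and 2 passed 2-fold.

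Collagens followed in a weaker form. Of 16 above the filter, 12 had a ratio of 24 hr over 1.5 hr below 0, 2 passed 2-fold and the median was -0.36. Col6a2 had 8211 untreated, 4241 at 1.5 hr, 1852 at 6 hr and 1456 by 24 hr, and Col3a1, the fibrillar collagen of loose tissue, had 2173 untreated, 2512 at 1.5 hr, 1191 at 6 hr and 987 by 24 hr. The main fibrillar collagen Col1a1 had 44002 untreated, 23778 at 1.5 hr, 20213 at 6 hr and 12173 by 24 hr, a ratio of -0.63, and its partner Col1a2 was at -0.18. Small leucine-rich proteoglycans had the lowest median of any list, -1.34, with 4 of 7 at least 2-fold lower and 1, Dcn, higher. Fmod (fibromodulin) had 190.3 untreated, 178 at 1.5 hr, 25.7 at 6 hr and 23.8 by 24 hr, and Podn (podocan) had 1034 untreated, 234 at 1.5 hr, 102 at 6 hr and 73.3 by 24 hr. The 4 members that were lower reached that point differently, Podn by a fall already under way at 1.5 hr, Fmod by a late fall, and Aspn and Ogn after an early rise. IGF-binding proteins, which hold insulin-like growth factors in the matrix, had a median of -0.62, with Igfbp3 (-1.13) below the limit, Igfbp4 (-0.94) and Igfbp6 (-0.77) inside it, and Igfbp7 (0.61) on the other side. Their ligand Igf1 had 133 untreated, 193 at 1.5 hr, 46.2 at 6 hr and 64.8 by 24 hr, a ratio of -1.24.

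Among the other late falls, Ptn (pleiotrophin), a heparin-binding growth factor, had 1642 untreated, 1672 at 1.5 hr, 625 at 6 hr and 179 by 24 hr, and Mgp (matrix Gla protein), which keeps cartilage and vessels free of mineral, had 1697 untreated, 4418 at 1.5 hr, 719 at 6 hr and 875 by 24 hr. Ptn was within 2-fold of untreated at 1.5 hr and 7.41-fold lower at 24 hr than at 1.5 hr. The imprinted gene Mest (-2.31), the matricellular protein Nov (-2.20), Tgfbi (-1.49), Mdk (-1.18), a relative of pleiotrophin, and the tendon factor Scx (-1.02) were in the same class. Growing falls included the collagen-binding integrin Itga11 (-1.63), the matricellular protein Wisp2 (-1.32), the homeobox factor Msx1 (-1.11) and Kif26b (-1.24).

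Several genes best known from macrophages, picked here from the lower genes after their values were seen, were also lower at 24 hr. Other genes known from leukocytes, Il2rg (1.57) and Mcpt8 (1.78), were higher. Fcrls, an Fc receptor-like gene of macrophages and microglia, had 271 untreated, 283 at 1.5 hr, 89.2 at 6 hr and 24.2 by 24 hr, the lowest ratio of all genes above the filter at -3.22. Apoe, the lipid carrier that macrophages secrete, had 11953 untreated, 4320.3 at 1.5 hr, 3378 at 6 hr and 835 by 24 hr, and its neighbour Apoc2 had 207 untreated, 78.8 at 1.5 hr, 51.1 at 6 hr and 11.3 by 24 hr. Of the complement list 2 genes were above the filter, C1s, higher at 24 hr, and C1qa, lower. C1qa (-1.23) and its partners C1qb (-1.28) and C1qc (-1.46), the receptor Cx3cr1 (-1.46) and Ms4a7 (-1.56) were at least 2-fold lower too. Of 9 markers of macrophages and other leukocytes, 4 were above the filter. All of these had ratios below 0, Aif1 at -2.04, Cd68 at -1.07, Csf1r at -0.88 and Lyz2 at -0.70. At 24 hr Lyz2 was still above untreated, at 1.56, whereas Aif1, Cd68 and Csf1r were below it. Among markers below the filter, deposited values, which are not centred, were 64.4 at 1.5 hr and 52.4 at 24 hr for Itgam. They were 30.8 and 16.6 for Ptprc and 74.0 and 27.3 for Emr1. The median gene above the filter stood at 0.79 of its 1.5 hr value at 24 hr, and Itgam dropped by about as much. The summed level of the 9 was 3452 untreated, 16065 at 1.5 hr, 3093 at 6 hr and 7742 at 24 hr, most of it from Lyz2. The T cell marker Cd3e was listed at 0 in every library. Fibroblast markers summed to between 37814 and 79486 per library, with 8 of 10 above the filter, and the 7 endothelial and 6 epithelial markers had none above it. Summed markers ranged over the libraries from 166 to 318 for skeletal muscle, 96.9 to 303 for adipocytes, 9.24 to 56.8 for erythroid cells and 600.2 to 1219.9 for neural cells. In bulk RNA a smaller number of such cells and less RNA per cell cannot be told apart, and the part of these cells in the matrix and complement results was not tested.

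Of the 1150 genes that were lower at 1.5 hr, 11 had come up at least 2-fold by 24 hr. Sox4, a developmental transcription factor, had 5774 untreated, 1031 at 1.5 hr, 3779.7 at 6 hr and 1890.1 by 24 hr, and Lmo4, a LIM-domain cofactor, had 2964 untreated, 952 at 1.5 hr, 4179.6 at 6 hr and 2223 by 24 hr. They stood at 1.21 and 1.56 for 24 hr over 1.5 hr, which left Sox4 still below untreated, at -1.72, and Lmo4 within 2-fold of it. The nuclear receptor Nr4a1, an immediate-early gene in many cells, was lower at 1.5 hr than untreated (-1.52) and back within 2-fold at 24 hr (-0.45). Hoxb4 had 203 untreated, 70.4 at 1.5 hr, 1330.3 at 6 hr and 132 by 24 hr, and Heatr3 had 817 untreated, 332 at 1.5 hr, 3479 at 6 hr and 562 by 24 hr. For both the 6 hr value was the highest of the 4, which the classes do not use. Sustained falls with low ratios at 1.5 hr included Muc6 (-4.22), Rtl1 (-4.05), Kcp (-3.85), Mbd6 (-3.46), Zfp579 (-3.29) and the chromatin regulator Mll2 (-3.28).

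Housekeeping groups and several other lists held few or no genes past 2-fold between the 2 times. Among all genes above the filter 1.73% passed it, so lists of this size would hold few such genes at that share too. The median ratio of 24 hr over 1.5 hr was 0.01 over 77 ribosomal protein genes and 0.01 over 74 subunits of oxidative phosphorylation, and none of these passed 2-fold. Cell cycle and replication genes (-0.14, 27 genes), cholesterol synthesis (-0.20, 19), the integrated stress response (0.05, 14), endoplasmic reticulum chaperones (-0.21, 14), glycolysis (0.07, 16) and class I antigen presentation (0.10, 13) held no gene past 2-fold either. The class I list had responded early, with 7 of its 13 genes at least 2-fold above untreated at 1.5 hr. Clustered histones had a median of 0.13 over 54 genes, but most of their messages lack the polyA tail that the libraries were selected for. Most of these medians lie near 0 only after centring, and without it every one of them is below 0, for example -0.32 for the ribosomal proteins. In the antioxidant, iron and metallothionein list (-0.14, 14 genes) Sod3 alone passed 2-fold, and the thioredoxin reductase Txnrd1 was at -0.76.

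Signalling groups next to NF-κB held few genes past 2-fold. These lists are short, and at the 1.73% of all genes above the filter they would hold few or none. Of 6 interferon regulatory factors, Irf1 was lower and Irf7 higher at 24 hr than at 1.5 hr. The other 4 were inside the limit, and Irf7 lay at it, with 1.01, and 0.95 in the R2 columns. The Bcl2 family had a median of -0.08 over 10 genes, with the Bcl2a1a and Bcl2a1b copies as its calls. Guanylate-binding proteins and immunity-related GTPases had a median of -0.68 over 4 genes, and all 4 were at least 2-fold above untreated at both times. The lists of interleukins and colony-stimulating factors (-0.55, 3 genes), STAT and SOCS genes (-0.09, 5), Toll-like receptors and innate sensors (0.17, 5), MAPK phosphatases (-0.08, 3), regulators of AU-rich message decay (-0.28, 6), prostaglandin synthesis (-0.14, 7) and p53, Cdkn and Gadd45 genes (0.11, 12) had none past 2-fold. Contractile and actin genes, which mark activated fibroblasts, had a median of -0.28, with 15 of 18 below 0 and none past 2-fold. In the list of TGF-β, BMP and matricellular genes (-0.08, 18 genes) the 1 call was Thbs2 (-1.18), and among growth factors (-0.09, 7 genes) it was Igf1.

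**Figure D3:**
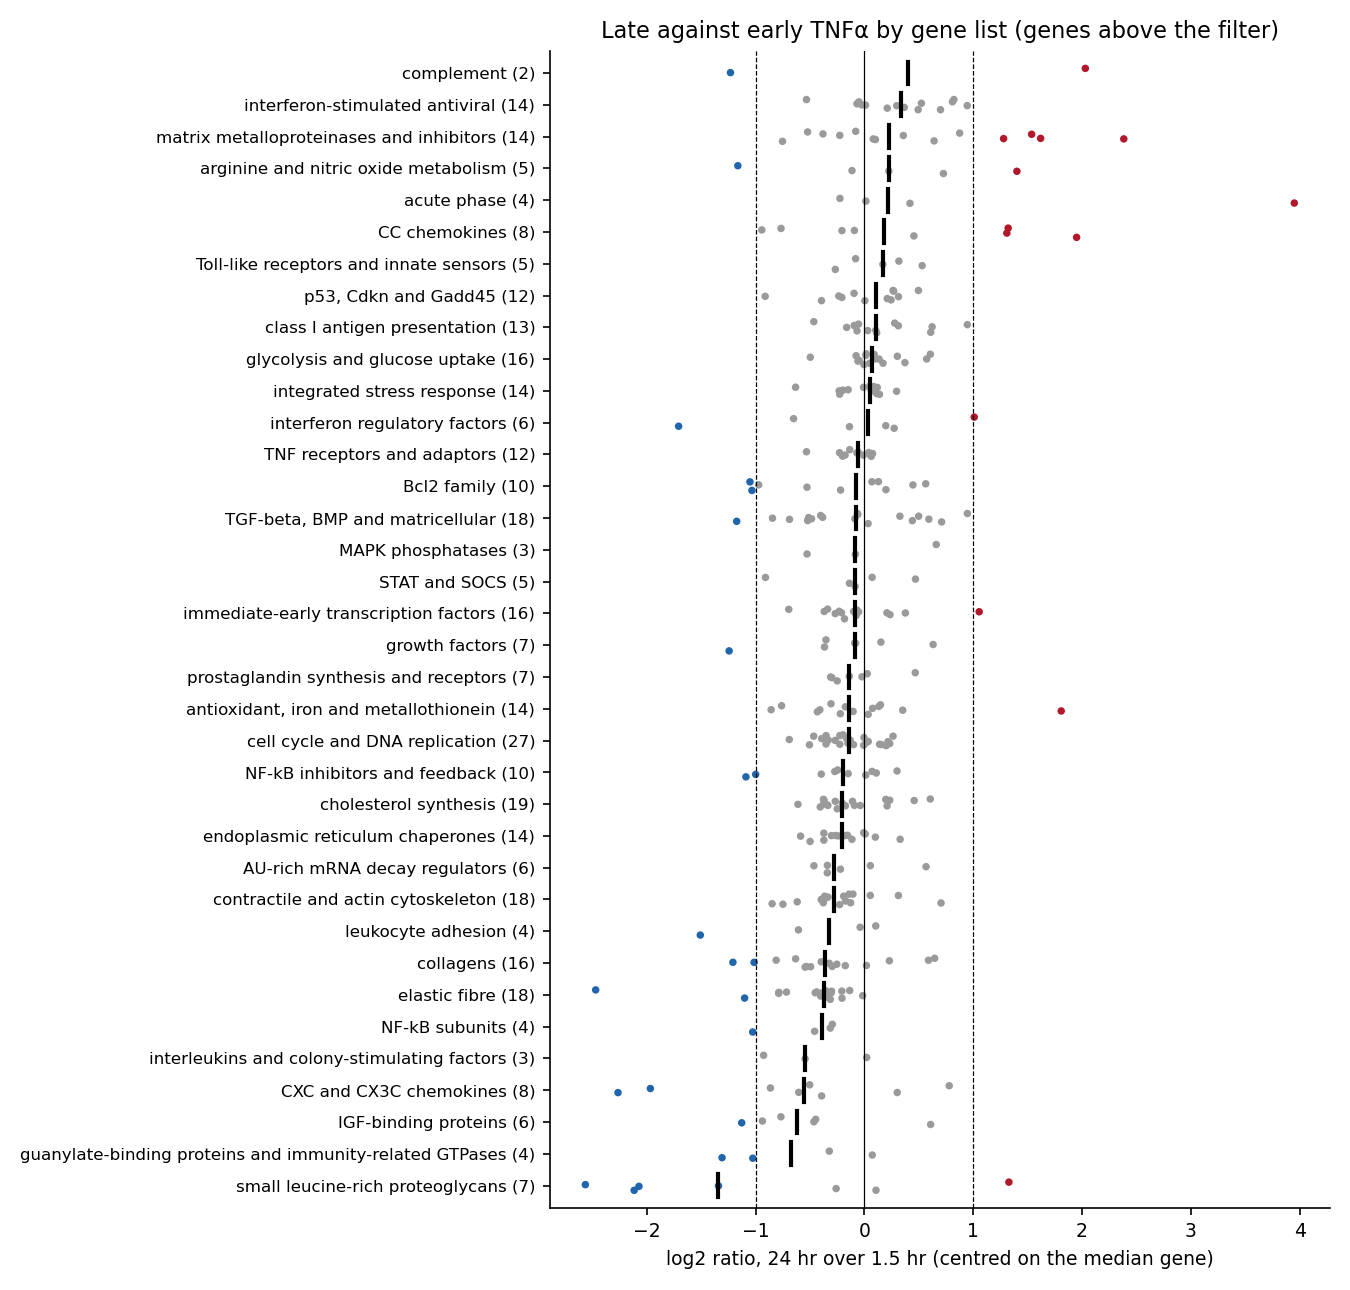
Each row is a list of genes with the number above the filter in parentheses, each point a gene at its centred log2 ratio of 24 hr over 1.5 hr, and each bar the list's median. Dashed lines mark 2-fold, with genes past it in red (higher) and blue (lower), and small leucine-rich proteoglycans sit lowest with a median of -1.34.

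The 6 hr library, which no class used, placed the classes differently. Of all 6571 genes above the filter, 468 were at least 2-fold above untreated at 6 hr and 208 as far below it. Among the same 6571 genes, 170 were at least 2-fold below 1.5 hr at 6 hr. Growing rises were at a median of 2.47 over untreated at 6 hr, between 1.82 at 1.5 hr and 3.43 at 24 hr, and all 11 were at least 2-fold above untreated there. Transient rises went from 2.68 to 1.68 and 1.35, and 9 of 23 were at least 2-fold below 1.5 hr at 6 hr. Single genes varied, with Cxcl10 at -1.22, Irf1 at -0.39 and Nfkbie at 0.09 for 6 hr over 1.5 hr. Sustained rises had a lower median at 6 hr than at either other time, 0.85, and 271 of 750 were 2-fold above untreated at all 3 times. Sustained falls were near their untreated level at 6 hr, with a median of -0.20, and 67 of 838 were at least 2-fold below untreated there. Sustained thus means alike at 1.5 and 24 hr and says nothing about the hours between. Growing and late falls stood below untreated at 6 hr as well, at medians of -1.33 and -0.90.

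**Figure D4:**
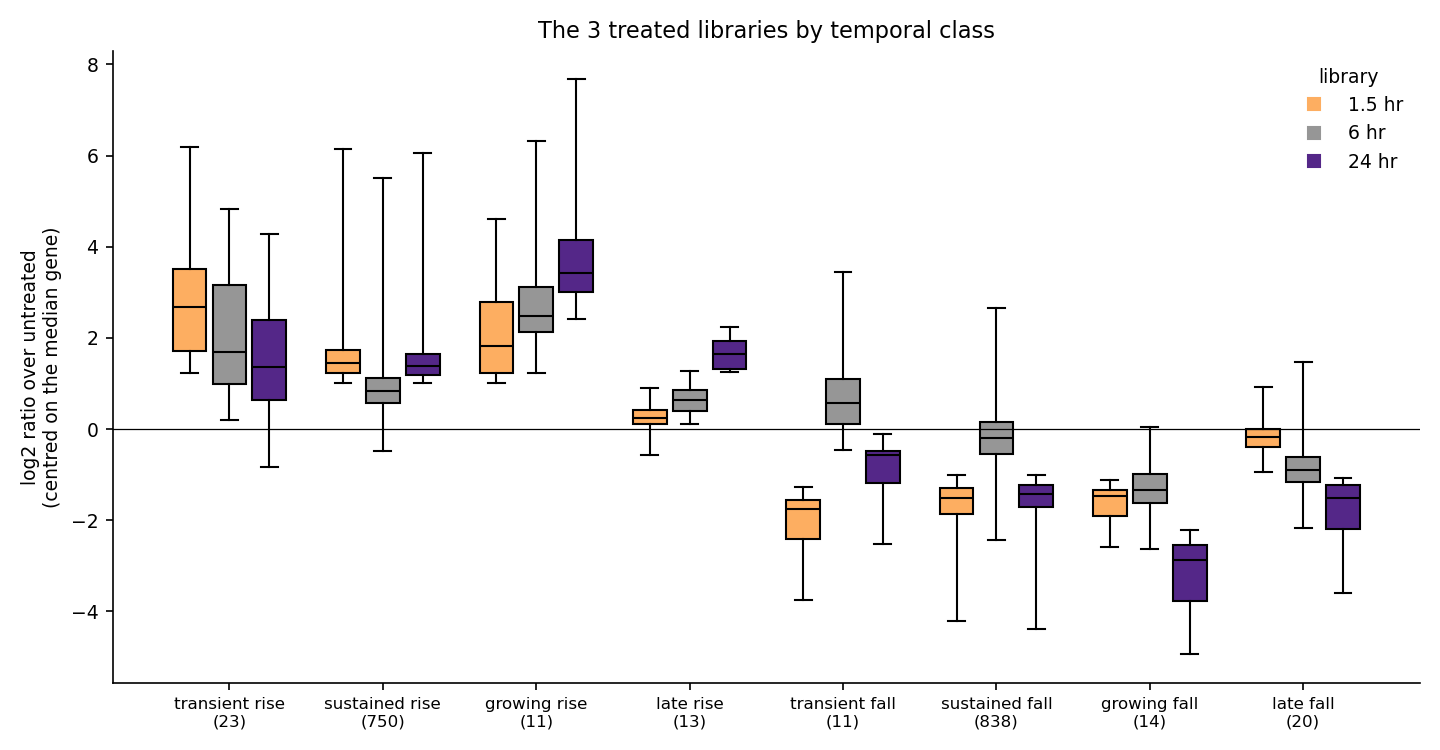
Boxes give the quartiles and median, and whiskers the full range, of the centred log2 ratio over untreated for the genes of each class in the 1.5, 6 and 24 hr libraries, with the number of genes in parentheses. Growing rises climb through the 3 times, whereas sustained falls return to a median of -0.20 at 6 hr.

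H3K4me3, a histone mark of active promoters, had been measured in untreated cells, which do not enter the ratio of 24 hr over 1.5 hr. The classes also use ratios over untreated RNA, so their shares are not independent of the untreated state. A peak within 1 kb of an annotated start was found for 6001 of 6509 genes above the filter (92.2%). Of the 114 genes that differed at least 2-fold between 24 and 1.5 hr, 58 had one (50.9%), and the shares were 51.2% for those higher and 50.7% for those lower. Growing rises (3 of 11) and late falls (5 of 20) had the lowest shares, while the share of sustained rises (92.5%) was close to that of all genes. The start of Saa3 and those of all 4 metalloproteinases of the growing rise had no peak, nor did those of Cxcl10, Icam1, Eln and Fmod, whereas Irf1, Tnfaip3, Nfkb1, Ptn and Dcn had one. Genes were also split into 4 equal bands by untreated value. From the lowest band to the highest, those that differed had shares of 48.8% of 41, 40.9% of 22, 31.8% of 22 and 75.9% of 29. Among the rest the shares were 91.9% to 94.3%. The lowest band ran from 3.52 to 130.5 and includes genes that passed the filter through treated libraries, such as Saa3 and Cxcl10. Whether the gap depends on the untreated level was not tested. Among the macrophage genes, none of Fcrls, Apoe, Apoc2, the C1q genes, Cx3cr1, Ms4a7, Aif1, Cd68, Csf1r and Lyz2 had a peak in this ChIP. The share of the gap that belongs to such genes was not tested.

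**Figure D5:**
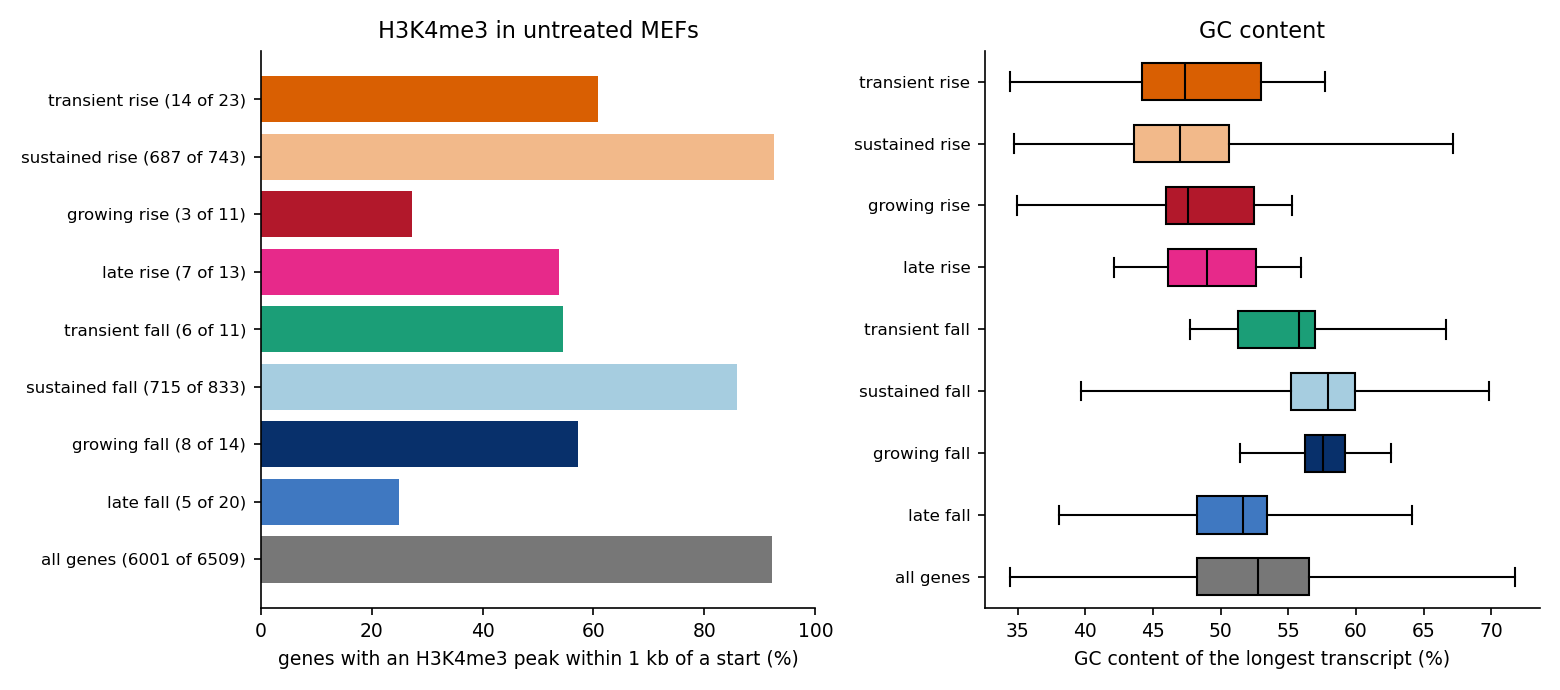
Left, bars give the percentage of genes in each class with an H3K4me3 peak within 1 kb of a start in untreated MEFs, from 25.0% of late falls to 92.5% of sustained rises. Right, boxes give the quartiles, median and full range of the GC content of the longest transcript, with medians of 47.0% for sustained rises and 57.9% for sustained falls against 52.8% for all genes.

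Sequence after the coding region was compared as well. The AU-rich nonamer of unstable messages, TTATTTATT on the sense strand, was in the 3′ untranslated region of 2 of 23 genes with a transient rise and 1 of 11 with a growing rise, against 5.66% of all genes above the filter. Median GC content was 47.4% in transient rises and 47.6% in growing rises, close to the 47.0% of sustained rises, and 51.7% in late falls, close to the 52.8% of all genes.

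Several of the genes that differed between 24 and 1.5 hr were neighbours in the genome, given here in mm9. Mmp13 (chr9:7272514-7283333), Mmp3 (chr9:7445822-7455972) and Mmp10 (chr9:7502352-7510238) lie on the plus strand of 1 cluster and all had a growing rise. Ccl5 (chr11:83339280-83344020) and Ccl9 (chr11:83386421-83392138) lie 42400 bp apart and were both at least 2-fold higher at 24 hr than at 1.5 hr. Aspn (chr13:49639812-49662926) and Ogn (chr13:49703440-49719869) both had a transient rise. C1qb, C1qc and C1qa lie within a few kb of each other on chr4, and Apoc2 and Apoe on chr7. Gbp3 and Gbp1 are adjacent on chr3, and Tmem176b and Tmem176a (1.18), whose starts lie 108 bp apart on opposite strands of chr6, were both higher at 24 hr. Among the 114 genes at least 2-fold apart between the 2 times, all with a position, 9 pairs of neighbours lay within 200 kb. No such count was made for other sets of genes, so whether 9 is many was not tested. Gbp1 and Gbp3 are also similar in sequence, as are the C1q genes to a lesser degree, and how reads were shared among similar genes is not given in the sources used here.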

How the data were processed

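RNA from 4 MEF libraries and 1 H3K4me3 ChIP of untreated cells were used, and the input library was not used here. The authors aligned the RNA reads with TopHat and the ChIP reads with Bowtie to mm9 and deposited RPKM per RefSeq transcript, on a scale whose factor is not given in the sources used here. The filter value of 85.6 on that scale came from an earlier analysis of these data. The peak table was deposited with tag counts, fold enrichment as a ratio, percent FDR and a score of −10 log10 p per peak from MACS, of which peak positions and tag counts were read. What R1 and R2 hold is not given in the sources used here. Among transcripts with 1 to 10 reads in R1, 62.1% at 1.5 hr and 63.7% at 24 hr had the same number in R2, so the 2 columns were averaged as 1 library. The authors report the number of mapped sequences per sample, but depth was not used here, and counting intervals were not computed.

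Python 3.11.15, pandas 2.3.3, numpy 2.4.6 and scipy 1.17.1 were used, with figures drawn in matplotlib 3.10.9. Protein coding entries were reduced to the one with the highest mean per symbol, genes with a mean above 85.6 over 8 columns were kept, and log2 ratios were taken with no pseudocount and centred on their median. With 1 library per time no model could be fitted, and called means at least 2-fold. The script was tested on simulated data. Transcript sequence, GC content and positions came from the mm9 gene annotation, matched by symbol (19725) or accession (240), with 310 unmatched. Promoters came from RefSeq on GRCm38.p6. The κB consensus of 10 bases was searched on both strands.

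The comparison, the 39 gene lists and the marker lists were chosen with earlier results of these data known, so no list's direction is independent evidence. Genes were named by rule: the 12 highest and 12 lowest ratios of 24 hr over 1.5 hr that passed 2-fold in both columns, the 6 strongest of each class, and members of the lists. Other genes, among them the further members of small classes, were named after their values were seen. Alternatives varied the filter, the fold, the pseudocount, the centring, the entries kept and the columns.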

Additional observations from a re-analysis of the deposited data

Results flagged for a closer look

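Several genes lay on opposite sides of their untreated level at the 2 times. Above untreated at 1.5 hr and below it at 24 hr were Aspn, Ogn, Mgp, Anxa8, Cthrc1, Ms4a7, Cx3cr1 and Igf1, with log2 ratios of 24 hr over 1.5 hr of -2.12, -2.07, -2.003, -1.71, -1.70, -1.56, -1.46 and -1.24. Their ratios of 1.5 hr over untreated were 1.32, 1.23, 0.93, 0.40, 1.47, 0.02, 0.14 and 0.09, so those of Ms4a7, Cx3cr1 and Igf1 were close to 0. Cx3cr1 stood at 1.48 over untreated at 6 hr. Below untreated at 1.5 hr and above it at 24 hr were Sod3 (1.81) and C1s (2.03), the latter with deposited values of 54.6 and 54.9 untreated and at 1.5 hr. With 1 library per time these differences were not tested.

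Noncoding entries were outside the comparison, and 2 of them were at least 2-fold higher at 24 hr than at 1.5 hr in both columns and than untreated. Others, given among the other observations, had larger ratios of 24 hr over 1.5 hr. Rmrp, the RNA of RNase MRP, had deposited values of 7627 untreated, 16558 at 1.5 hr, 11506 at 6 hr and 31642 by 24 hr. Its centred log2 ratio of 24 hr over 1.5 hr was 1.27. Rmrp lacks a polyA tail and the libraries were of polyA RNA, so its values may not follow its level in the cells. Gm5424, an entry related in sequence to Ass1, had 1043 untreated, 3723 at 1.5 hr, 1603 at 6 hr and 7369.7 by 24 hr, a ratio of 1.32 beside 1.40 for Ass1, and how reads were shared between the 2 is not given in the sources used here.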

How the results depend on the processing

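No paired analysis was possible because each time had 1 library. Counts are given in the order of genes higher and lower at 24 hr than at 1.5 hr, then transient, sustained, growing and late rises, then transient, sustained, growing and late falls, and were 43, 71, 23, 750, 11, 13, 11, 838, 14 and 20. With no filter on low values they were 753, 735, 146, 1490, 48, 114, 451, 2052, 163 and 299, and with the filter at 10 times its value 9, 11, 4, 154, 3, 2, 3, 144, 3 and 3, with a median ratio of -0.31 in place of -0.33. A fold of 1.5 gave 277, 247, 125, 1456, 45, 56, 138, 1500, 48 and 51, and a fold of 3 gave 7, 19, 4, 176, 2, 4, 0, 234, 3 and 7. A pseudocount equal to the filter value gave 21 higher, 31 lower, 10 transient, 299 sustained and 4 growing rises, and 2 transient, 473 sustained, 3 growing and 9 late falls. Without centring, 12 were higher and 185 lower, so 6.09% of calls were higher in place of 37.7%, with 96 transient, 7 growing and 4 late rises and 1 transient, 450 sustained and 43 late falls. Centring within 20 GC bins left 490 sustained and 7 growing rises and 437 sustained and 9 growing falls. Every protein coding entry kept gave 20 late rises. Fewer genes pass a stricter filter or fold by construction, and for the rest the cause was not tested. The other centrings and the R1 or R2 columns alone kept these counts within 1.5 times.

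Of 62 named genes at least 2-fold apart between the 2 times, 29 stayed so under all 9 alternatives run on single genes and 0 changed direction. These alternatives reuse the same 2 libraries, so a gene past 2-fold had little room to change direction, and that 0 is no evidence of stability. Of 351 list medians, 24 changed sign, 14 of them without centring. With 1 library per time, the spread between cultures is not in any of these ranges.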

Other observations

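Among 310 noncoding entries above the same filter, 11 exceeded their 1.5 hr value at least 2-fold at 24 hr and 6 were as far below it, with a median centred log2 ratio of 0.08. H19, an imprinted noncoding RNA of embryonic tissue, had 39603 untreated, 27671 at 1.5 hr, 8393 at 6 hr and 9928 by 24 hr, a ratio of -1.15. Mir675, whose hairpin lies within H19, had a ratio of -1.36, so these are not separate measurements. Rpph1, the RNA of RNase P, stood at 1.77, on the same side as Rmrp. Rprl3 (1.85), Snora5c (1.72), Rnu12 (1.49) and Rprl2 (1.33) were also at least 2-fold higher at 24 hr than at 1.5 hr. Small RNAs of these kinds mostly lack a polyA tail, so in polyA libraries their values may not follow their levels in the cells. Mir2145-2 (2.31) had deposited values of 3.13 untreated, 5.94 at 1.5 hr, 10930.1 at 6 hr and 23.4 by 24 hr, and so passed the filter through the 6 hr library. Gm6498 (-9.51) had ratios of opposite sign in its R1 and R2 columns.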
